A study of Sus scrofa with 10 samples.

Results

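The transcripts of the oviduct were compared between 6 sows whose blood progesterone was 3.5 ng/ml or more and 4 sows in which it was 1.7 ng/ml or less, which together are all 10 sows of the series. The classes are called the higher-progesterone and the lower-progesterone sows. They rest on a hormone measured in blood drawn when the tissue was taken, and no sow received progesterone. All were commercial crossbred Landrace x Large White sows, weaned and in natural oestrus without hormonal induction, and all had ovulated before the oviducts were removed. The higher-progesterone sows were 3 inseminated (AI943, AI837, AI792) and 3 not inseminated (AI788, AI1061, AI991) animals, and the lower-progesterone sows were 2 inseminated (AI993, AI1059) and 2 not inseminated (AI696, AI992) animals. Each sow is called by its array label, in which the letters AI do not mark insemination. The age of the sows is not given in the sources used here.

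Progesterone is secreted by the corpora lutea that form from ovulated follicles, so its concentration in blood climbs in the days after ovulation. It acts through the nuclear receptor PGR, which opposes much of the action of oestradiol on its receptor ESR1, and through membrane components such as PGRMC1. In the oviduct both hormones act on the secretory and ciliated cells of the mucosa and on the muscle of the wall, which moves gametes and embryos.

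RNA came from whole pieces of the ampullary-isthmic junction, the segment in which pig oocytes are fertilized, and each sow had 1 single-colour porcine array. The pieces held mucosa and wall together and were not flushed, so fewer cells of a type and less RNA per cell cannot be told apart in any value below. Values are log2 intensities, which the authors corrected for background and quantile-normalized, averaged over the features of a gene, and 4560 genes could be named. Every difference is the mean of the higher-progesterone sows minus that of the lower-progesterone sows on the log2 scale. Over all sows and on surgery day 1 it was fitted with insemination as a covariate, but not within an insemination group or on day 2. A standard error (SE) is given for the fit of all sows. The label of the tissue fits its markers, since OVGP1, the oviductal glycoprotein that secretory cells release, lay between 15.91 and 15.98 in every sow and the epithelial keratin KRT18 between 12.69 and 13.97. Array AI1061, from a higher-progesterone sow, stood apart. Its correlation with the other arrays over all features was 0.927 to 0.945, whereas the remaining arrays correlated with each other at 0.966 to 0.986, and its secretory epithelial genes lay 0.66 below their means over all sows. The counts and medians of the lists are therefore given with and without it. Oviducts were collected on 2 surgery days, day 1 or day 2 of the study's protocol, in which weaning and insemination come earlier. The surgery day therefore counts time within the protocol. Time since ovulation was not used here, and its part in the class differences was not tested. Both classes were present on each day, with 4 higher-progesterone and 3 lower-progesterone sows on day 1. On day 2 there were 2 and 1, and the class could not be separated from insemination. The 2 were not inseminated (AI788, AI991) and the 1 was inseminated (AI1059). Class differences within an insemination group, and their contrast between the groups, are therefore mixed with surgery day.

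No gene passed a false discovery rate of 5% between the classes in limma, that is 0% of the genes tested, and the lowest adjusted p was 0.105. At an unadjusted p under 0.05, 244 genes, or 5.35%, were higher and 260, or 5.7%, were lower in the higher-progesterone sows. These 504 genes became 275 without AI992 and 639 without AI1061. Over all genes 49.9% were higher in mean and the median difference was 0.00, and the lists of genes below are read against these shares. A difference of at least 2-fold was found for 29 genes in the higher and 27 in the lower direction. The arrays do not settle single genes, so the unadjusted limma p and a two-sided exact permutation p are given as a ranking. For the latter the class was permuted within the insemination groups, over 100 arrangements, and the smallest value it can give is 0.01.

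**Figure D1:**
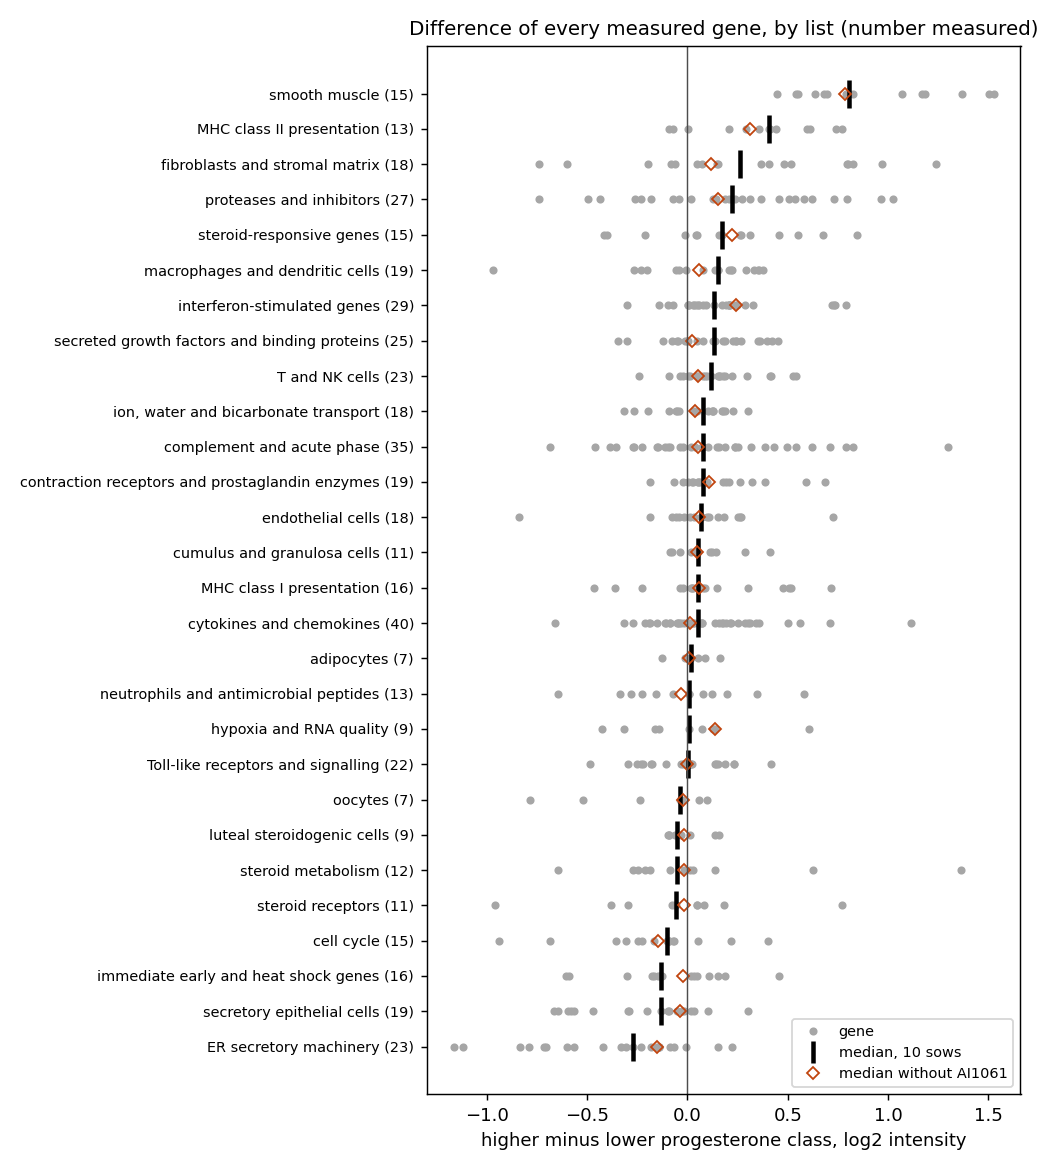
Differences between the progesterone classes on the log2 scale for every measured gene (grey points) of the lists with 5 or more measured members, the number measured standing in parentheses after each list. Black bars are medians over 10 sows and open diamonds medians without AI1061. The smooth muscle list lies to the right, with a median of 0.81, and the list of the secretory machinery of the endoplasmic reticulum (ER) to the left, with a median of -0.27.

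Among the layers of the oviduct wall, transcripts of smooth muscle stood highest in the higher-progesterone sows. All 15 measured genes of 24 listed were higher in mean, by 0.45 to 1.53, and each of the 15 had an unadjusted p under 0.05, against the 5.35% of all genes. The median difference was 0.81, with 0.00 over all genes. In 5 of them the ranges of the classes did not overlap, a pattern shown by 1.05% of all genes. Without AI1061 the count was again 15 of 15 and the median 0.79, when 7.79% of all genes were higher and 6.23% lower at the same p.

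FLNA, which crosslinks actin filaments, had values of 9.31, 8.95, 8.77 and 8.26 in the lower-progesterone sows AI993, AI1059, AI696 and AI992. In the higher-progesterone sows its lowest, median and highest values were 9.42, 10.21 and 10.96, so that the classes did not overlap. The difference was 1.37 (SE 0.28, unadjusted p = 0.000655, adjusted p = 0.164 in limma, exact p = 0.01), a 2.58-fold higher level.

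MYLK, the kinase that starts contraction by phosphorylating myosin, was also apart in the classes, with 11.97, 11.94, 11.32 and 11.33 in the lower-progesterone sows, in the same order, and 12.09, 12.88 and 13.44 as the lowest, median and highest of the others. It differed by 1.17 (SE 0.25, adjusted p = 0.167 in limma, exact p = 0.01), and all of its 12 features had that direction. PLN, which restrains the calcium pump of the sarcoplasmic reticulum, differed by 0.82 (SE 0.18, exact p = 0.01), again without overlap. The highest of the lower-progesterone sows, AI993, was close to the lowest of the higher-progesterone sows, AI943, in each of these genes.

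CNN1 (calponin, an actin-binding protein of contractile smooth muscle) and TPM2 (a tropomyosin) had the largest differences of the list. CNN1 was at 13.29, 13.14, 12.43 and 11.95 in the lower-progesterone sows and from 13.22 to 14.71, with a median of 14.32, in the higher-progesterone sows. TPM2 was at 13.51, 13.66, 12.56 and 12.1 against 13.61 to 14.93, with a median of 14.62. The classes met at a single sow in both genes, AI943, the lowest of the higher-progesterone animals. The differences were 1.50 (SE 0.33, exact p = 0.02) for CNN1 and 1.53 (SE 0.34, exact p = 0.02) for TPM2, each with an adjusted p of 0.167 in limma.

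The intermediate filament protein DES differed by 1.07 (SE 0.28), the cytoskeletal protein SMTN by 1.19 (SE 0.32), the calcium sensor TNNC1 by 1.23 (SE 0.37) and PPP1R14A, which inhibits myosin phosphatase, by 1.27 (SE 0.39). Their exact p ran from 0.03 to 0.04 and the classes overlapped in all of them. TNNC1 and PPP1R14A are not on the smooth muscle list and were named among the 2-fold higher genes. AI696 and AI992 were the lowest sows in SMTN, TNNC1 and PPP1R14A, and AI991 the highest. ACTB, the cytoplasmic actin used as a reference gene, was higher by 0.36 (SE 0.12, exact p = 0.04) as the mean of its features, a direction that turned to -0.01 with its brightest feature alone. The other reference gene, GAPDH, differed by -0.16 (SE 0.09, exact p = 0.06).

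**Figure D2:**
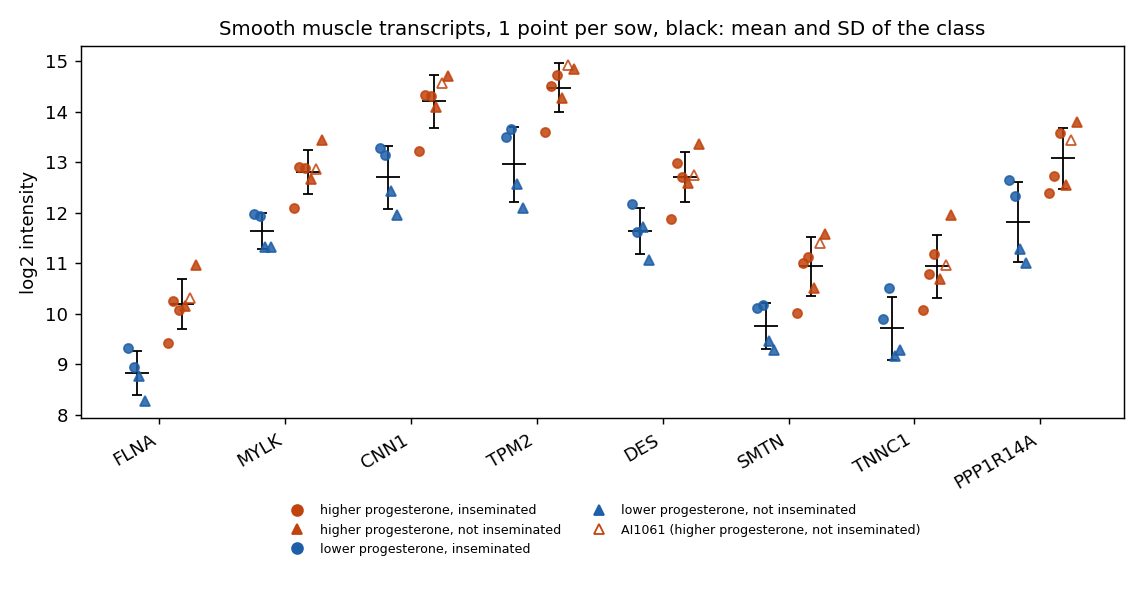
Log2 intensities of 8 muscle transcripts, 1 point per sow (blue, 4 lower-progesterone sows, red, 6 higher-progesterone sows, circles inseminated, triangles not inseminated, open triangle AI1061), with the mean and SD of each class in black. TNNC1 and PPP1R14A are not on the smooth muscle list. The higher-progesterone sows lie above in mean in every gene, and the lower-progesterone sows AI696 and AI992, which were not inseminated, are at or near the bottom.

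Averaged over the smooth muscle list, the sows deviated from the mean of all sows by -0.23 (AI993), -0.34 (AI1059), -0.65 (AI696) and -0.99 (AI992) in the lower class and by -0.21 to 0.81 in the higher class. The classes therefore did not overlap but came within 0.02 of each other. The median difference was 0.83 on surgery day 1 and 0.72 on day 2. It was 0.49 in the inseminated sows, where 5 genes had an unadjusted p under 0.05, and 1.17 in those not inseminated, where all 15 had. Leaving out AI943 raised the number of genes at a false discovery rate of 5% from 0 to 23, among them FLNA (1.54), MYLK (1.34), CNN1 (1.74) and TPM2 (1.75), while without any other single sow at most 1 gene passed.

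Connective tissue showed a weaker pattern. Of 18 measured genes of fibroblasts and their matrix 13 were higher in mean, 5 of them and 2 of the lower ones at an unadjusted p under 0.05, and the median was 0.26, against 0.12 without AI1061 and 0.14 without AI992. TIMP1, an inhibitor of matrix metalloproteinases, was at 11.18, 11.24, 10.96 and 10.87 in the lower-progesterone sows and from 11.37 to 12.19, with a median of 11.91, in the others. The classes did not overlap, and the difference was 0.79 (SE 0.17, adjusted p = 0.167 in limma, exact p = 0.01).

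Fibronectin, FN1, differed by 0.97 (SE 0.24, exact p = 0.02), but by 1.23 on surgery day 1 and 0.15 on day 2. The collagen chain COL6A3 differed by 0.80 (SE 0.23, exact p = 0.03) and the matrix protein POSTN by 1.24 (SE 0.48, exact p = 0.09). POSTN was lowest in AI992 and AI696, at 8.8 and 8.93, and highest in AI837, at 11.78. The 2 lower genes at an unadjusted p under 0.05 were COL14A1, another collagen chain (-0.60, SE 0.24), and TIMP2, another metalloproteinase inhibitor (-0.74, SE 0.32). Without AI1061 they differed by -0.68 and -0.87. In mean level over the list the sows ran from -0.15 to 0.41 in the higher class and from -0.54 to 0.07 in the lower class.

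Vessels were nearer to the background, with 12 of 18 measured endothelial genes higher in mean, 3 of them at an unadjusted p under 0.05, and a median of 0.07. Without AI1061 there were again 12, 2 of them at that p, with a median of 0.06. VCAM1, an adhesion molecule to which leukocytes bind, had 8.07, 8.27, 8.03 and 7.95 in the lower-progesterone sows and 8.47 to 9.4, with a median of 8.64, in the others, with no overlap. It differed by 0.72 (SE 0.18, exact p = 0.01). The junction protein CLDN5 differed by 0.27 (SE 0.10, exact p = 0.04) and the adhesion molecule PECAM1 by 0.25 (SE 0.10, exact p = 0.01). KDR, a receptor for vascular endothelial growth factor, had the largest difference of the list in size, -0.84 (SE 0.49, exact p = 0.10). It rested on AI696, at 10.33 against 6.92 to 7.84 in all other sows, and was -0.13 without that sow.

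Among the receptors through which the steroids act, 3 of 11 measured genes were lower and 1 was higher at an unadjusted p under 0.05, and the list had a median of -0.06. The counts were the same and the median -0.02 without AI1061. Transcripts of the nuclear progesterone receptor PGR were at 9.85, 8.97, 10.56 and 10.58 in the lower-progesterone sows AI993, AI1059, AI696 and AI992. In the higher-progesterone sows they ran from 8.63 to 9.58, with a median of 8.97. AI1059 lay at that median and the other lower-progesterone sows lay above all 6. The difference was -0.96 (SE 0.31, unadjusted p = 0.0118, adjusted p = 0.299 in limma, exact p = 0.05), a 1.94-fold lower level, and -0.84 without AI1061. It was -1.71 in the sows not inseminated and -0.20 in the inseminated sows, with an interaction of 1.51 (SE 0.42, adjusted p = 0.669 in limma), and it was -1.25 on surgery day 1 and 0.00 on day 2. PGR had 1 feature.

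The oestrogen receptor ESR1 was lower by 0.38 in mean (SE 0.12, adjusted p = 0.284 in limma, exact p = 0.03), with all 4 features in that direction. Its values were 8.65, 8.34, 8.73 and 8.62 in the lower-progesterone sows and 7.92 to 8.37, with a median of 8.23, in the others, so that only AI1059 fell into the higher class. For the second oestrogen receptor, ESR2, which was dim at 6.61 to 7.2, the difference was -0.06 (SE 0.12), a direction that turned without AI696. The mineralocorticoid receptor NR3C2 differed by -0.29 (SE 0.10, exact p = 0.02), with 7.7, 7.62, 7.89 and 7.76 against 7.25 to 7.62, and the classes met without crossing.

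PGRMC1, a membrane protein linked to rapid progesterone responses, was in the opposite direction. It was at 11.8, 11.97, 11.21 and 11.21 in the lower-progesterone sows and from 11.5 to 12.75, with a median of 12.48, in the others. Within the higher class AI943 alone lay below any lower-progesterone sow. The difference was 0.77 (SE 0.27, adjusted p = 0.329 in limma, exact p = 0.07), or 1.34 in the sows not inseminated and 0.20 in those inseminated. Its relative PGRMC2 differed by -0.06 (SE 0.13), and the sign of that value turned under several alternatives.

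**Figure D3:**
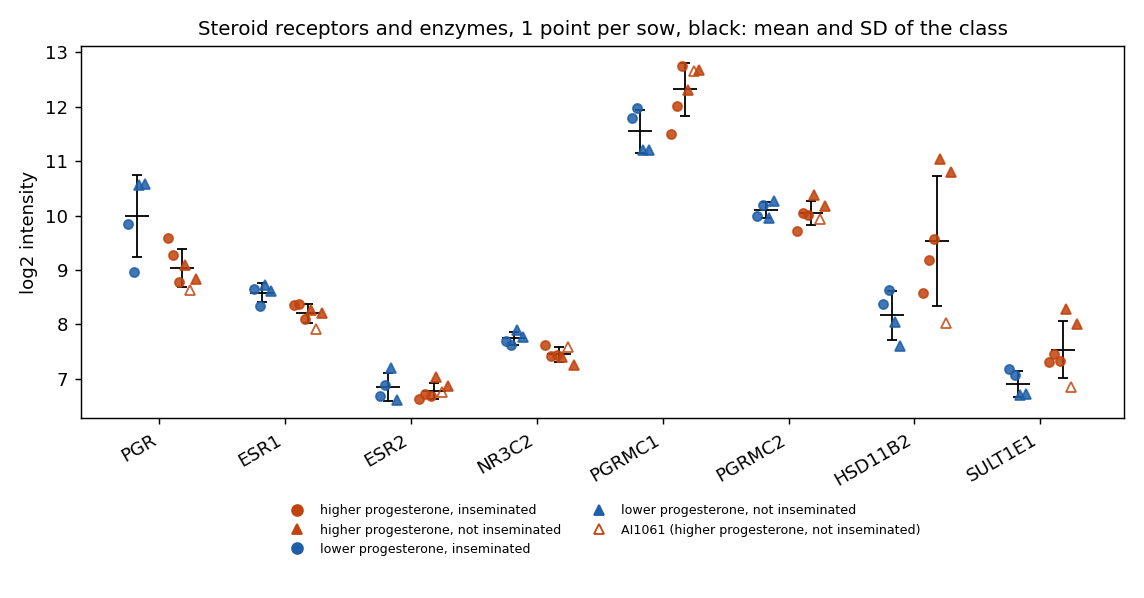
Log2 intensities of steroid receptors and of 2 steroid-metabolizing enzymes, drawn as in the plot of smooth muscle transcripts. PGR and ESR1 are lower and PGRMC1 is higher in mean in the higher-progesterone sows, while ESR2 and PGRMC2 differ by -0.06 each.

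Of 15 genes listed as responsive to progesterone or to other steroids and measured here, 11 were higher in mean, 3 at an unadjusted p under 0.05, with a median of 0.17. Without AI1061 these counts were the same and the median was 0.22. NR2F2, a nuclear receptor that acts downstream of progesterone in the stroma of the mouse uterus, had 10.59, 10.58, 10.03 and 10.19 in the lower-progesterone sows and 10.59 to 11.61, with a median of 11.31, in the others. The classes touched at AI993 and AI943. The difference was 0.85 (SE 0.22, exact p = 0.03). FKBP5, a co-chaperone of steroid receptors that both progesterone and glucocorticoids induce, differed by 0.67 (SE 0.22, exact p = 0.04), and CALB1, a calcium-binding protein near the lower end of the scale, by 0.46 (SE 0.14), which turned to -0.15 with its brightest feature.

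For enzymes of steroid metabolism the list had a median of -0.05, or -0.02 without AI1061, and 2 of 12 measured genes were higher at an unadjusted p under 0.05 in both cases. HSD11B2, which inactivates cortisol, was at 8.37, 8.64, 8.04 and 7.61 in the lower-progesterone sows and from 8.02 to 11.04, with a median of 9.37, in the others. The sows AI788 and AI991, both of surgery day 2 and not inseminated, were far above the rest, at 11.04 and 10.8. AI1059, the lower-progesterone sow of day 2, was at 8.64. In the higher class AI1061, at 8.02, and AI943, at 8.57, lay within the range of the lower class. The difference was 1.36 (SE 0.57, exact p = 0.11), 1.74 without AI1061, 0.48 on day 1 and 2.29 on day 2. SULT1E1, which adds sulphate to oestrogens, had the same outline, with 8.29 and 8.01 in AI788 and AI991, 6.84 in AI1061 and a difference of 0.63 (SE 0.26, exact p = 0.10). It was 0.79 without AI1061, when the classes no longer overlapped. AI788 and AI991 were the highest sows in both genes and AI1061 the lowest of the higher class.

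Receptors and enzymes of contraction and prostaglandin synthesis were higher in mean in 16 of 19 measured genes, 1 of them at an unadjusted p under 0.05, with a median of 0.08. Without AI1061, 13 were higher in mean, 2 of them at that p, with a median of 0.11. The gene at that p over all sows was PTGER3, a prostaglandin E2 receptor, at 7.11, 7.01, 6.65 and 6.97 in the lower-progesterone sows and 7.07 to 8 in the others (difference 0.59, SE 0.17, exact p = 0.03). The secreted protein SCUBE3 (1.19, SE 0.33) and the oxygenating enzyme FMO1 (1.25, SE 0.38) were among the 10 genes with the smallest p of those at least 2-fold higher and not among the dimmest 40%, together with FLNA, MYLK, CNN1, TPM2, DES, SMTN, TNNC1 and PPP1R14A.

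Secretion had the opposite direction in its machinery. The list of the ER secretory machinery also held the transcription factors DDIT3 and ATF4 and trafficking genes such as RAB5A and RAB11A. Of 23 measured genes of the ER secretory machinery, out of 48 listed, 21 were lower in mean in the higher-progesterone sows, 8 of them at an unadjusted p under 0.05, against 5.7% of all genes, and none was higher at that p. The median was -0.27. In 2 genes the ranges did not overlap, which was so for 1.69% of all genes in the lower direction. Without AI1061 there were 18 lower in mean, again 8 at an unadjusted p under 0.05, and the median was -0.15.

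Among these genes were HSP90B1, a chaperone of the ER lumen (-1.16, SE 0.29, exact p = 0.03), and the ER co-chaperone DNAJB11 (-0.79, SE 0.22, exact p = 0.02). Others were the stress-induced transcription factor DDIT3 (-0.83, SE 0.19, exact p = 0.02) and RPN1 (-0.42, SE 0.12, exact p = 0.01), a subunit of the complex that attaches N-glycans. The adjusted p of HSP90B1, DNAJB11, DDIT3 and RPN1 ran from 0.167 to 0.249 in limma. HSP90B1 was at 14.34, 13.54, 14.64 and 14.37 in the lower-progesterone sows and from 12.48 to 13.69, with a median of 13.02, in the others. Only AI1059 fell within the higher class. RPN1 was apart, with 11.23, 11.1, 11.51 and 11.55 against 10.72 to 11.05.

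Among the 10 genes with the smallest p of those at least 2-fold lower were SDF2L1, DNAJC3, PRDX4 and ST6GALNAC4, none of which is on the list. SDF2L1, a resident ER protein that assists chaperones, had 14.46, 14.08, 14.83 and 14.5 in the lower-progesterone sows and 11.02, 12.68 and 13.62 as the lowest, median and highest of the others. All 6 lay below all 4. The difference was -2.04 (SE 0.42, adjusted p = 0.164 in limma, exact p = 0.01), a 4.1-fold lower level, with the same direction in all 5 features. With surgery day as a further term it was -1.93 with an adjusted p of 0.0435.

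DNAJC3, a co-chaperone induced by ER stress, differed by -1.42 (SE 0.29, exact p = 0.01), with 11.32, 10.46, 11.69 and 11.13 against 9.17 to 10.41. PRDX4, the peroxiredoxin of the ER, differed by -1.11 (SE 0.25, exact p = 0.01). It lay between 13.19 and 13.37 in all 4 lower-progesterone sows and spread from 11.37 to 12.95 in the others, so that the classes were apart and the spread was on the higher-progesterone side. The sialyltransferase ST6GALNAC4, an enzyme of the Golgi, was at 11.58, 11.39, 12.05 and 12.1 against 10.49 to 11.14 (difference -1.07, SE 0.17, adjusted p = 0.105 in limma, exact p = 0.01).

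HSPA5 (BiP), the main chaperone of the ER lumen, is named here after its values were seen. It was at 11.21, 10.93, 12.02 and 11.89 in the lower-progesterone sows. The inseminated higher-progesterone sows had 10.95, 11.21 and 10.75, and those not inseminated had 9.62, 9.92 and 9.91. The latter 3 lay below every other sow, and the former 3 lay beside the inseminated lower-progesterone sows. The difference was -1.12 over all sows (SE 0.34, exact p = 0.05), -0.09 in the inseminated and -2.14 in the not inseminated sows. The interaction of class and insemination was 2.04 (SE 0.25, adjusted p = 0.0765 in limma), the smallest adjusted p among all genes. Of all genes 6.07% had an interaction at an unadjusted p under 0.05 and none at a false discovery rate of 5%. Surgery day was unevenly spread over these groups, with AI788, AI991 and AI1059 of day 2. Its part in the interaction was not tested.

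The same order of the 2 groups was seen in HSP90B1 (-0.40 inseminated, -1.93 not inseminated, interaction adjusted p = 0.546 in limma) and DNAJB11 (-0.19 and -1.39, adjusted p = 0.421), but the difference between the groups passed in none of these genes. Over the ER list the median was -0.06 in the inseminated and -0.69 in the not inseminated sows, and 0 and 9 genes were lower at an unadjusted p under 0.05. By surgery day the median was -0.46 on day 1 and 0.00 on day 2.

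**Figure D4:**
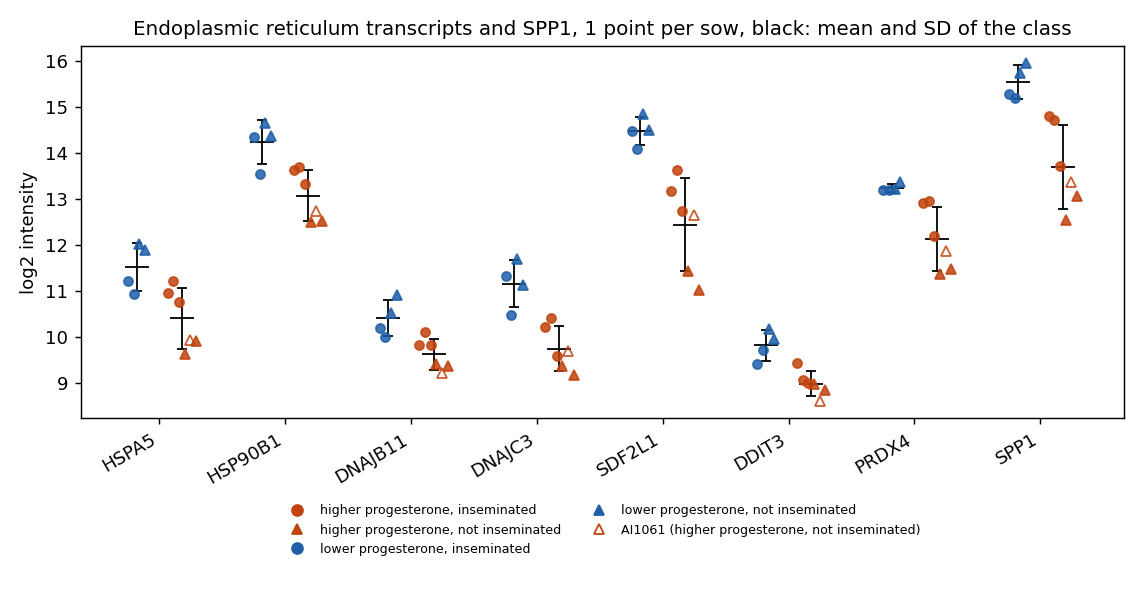
Log2 intensities of 7 transcripts of the endoplasmic reticulum or its stress response and of SPP1, drawn as in the plot of smooth muscle transcripts. SDF2L1, DNAJC3, PRDX4 and SPP1 do not overlap between the classes, and in HSPA5 the red triangles, higher-progesterone sows that were not inseminated, lie below all other points.

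SPP1 (osteopontin), a phosphoprotein of oviductal fluid, was at 15.28, 15.18, 15.72 and 15.95 in the lower-progesterone sows and from 12.53 to 14.79, with a median of 13.53, in the others. The classes did not overlap. The difference was -1.84 (SE 0.39, adjusted p = 0.167 in limma, exact p = 0.01), a 3.59-fold lower level, and -1.84 without AI1061. It was -0.84 in the inseminated and -2.85 in the not inseminated sows (interaction 2.02, SE 0.48, adjusted p = 0.594). In at least 1 sow each of its 4 features came within 0.1 of the top of the scale, where differences are compressed.

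SLC17A1, a transporter of phosphate and organic anions, had the smallest p of all genes. It was at 9.97, 8.65, 9.51 and 9.76 in the lower-progesterone sows and from 6.99 to 8.3, with a median of 7.33, in the others, again without overlap. The difference was -2.03 (SE 0.29, unadjusted p = 4.19e-05, adjusted p = 0.105 in limma, exact p = 0.01), a 4.1-fold lower level. It held at -1.61 in the inseminated, -2.46 in the not inseminated sows, -2.36 on day 1 and -1.48 on day 2, and the adjusted p was 0.0435 with surgery day as a further term. TMEM86B, a lysoplasmalogenase, differed by -1.18 (SE 0.23, exact p = 0.01), the lactonase PON3 by -1.60 (SE 0.38, exact p = 0.02) and ID4, an inhibitor of helix-loop-helix transcription factors, by -1.36 (SE 0.32, exact p = 0.02). LOC100526118, which carries no gene name, differed by -1.31 (SE 0.27, exact p = 0.01) without overlap.

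The secretory epithelium itself was divided. Of 19 measured genes 15 were lower in mean, 5 of them at an unadjusted p under 0.05 and none higher, with a median of -0.13. Without AI1061 the median was -0.04 and 10 genes were lower, 5 again at that p, while 1 gene, CD9 (0.30), was higher at that p. The list deviated by -0.66 to 0.14 in the higher class, where the lowest value was that of AI1061 and the next was -0.08, and by -0.06 to 0.23 in the lower class.

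LTF (lactoferrin), an iron-binding antimicrobial protein, differed by -0.65 (SE 0.19, exact p = 0.03), with 14.25, 14.04, 13.76 and 14.28 against 12.92 to 14.18. KRT18 differed by -0.58 (SE 0.17, exact p = 0.03), the folate receptor FOLR1 by -0.60 (SE 0.21, exact p = 0.05) and DMBT1, a scavenger receptor protein of mucosal secretions, by -0.57 (SE 0.22, exact p = 0.08). DMBT1 turned to 0.03 with its brightest feature. Other epithelial genes hardly differed over all sows, namely KRT8 (-0.09, SE 0.38), EPCAM (-0.02, SE 0.29) and CLDN7 (-0.05, SE 0.25). Without AI1061 these 3 were at 0.211, 0.235 and 0.162. PIGR (0.30, SE 0.21) and CD9 (0.10, SE 0.24) were among the 4 genes higher in mean. OVGP1 differed by 0.02 (SE 0.07), but all its values were at the upper end of the scale, which limits what can be seen. Only 3 of 25 listed genes of ciliated cells were measured, with differences of -0.40 to -0.19 and a median of -0.26, or -0.03 without AI1061.

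Ion and water channels and transporters stayed near the background, with 11 of 18 higher in mean, 0 at an unadjusted p under 0.05 and a median of 0.08, or 12, 0 and 0.04 without AI1061. Growth factors and their binding proteins were higher in mean in 17 of 25 genes, 3 of them at that p, with a median of 0.13. Without AI1061, 15 were higher, 2 at that p, with a median of 0.02. The 3 genes were TGFB3 (0.35, SE 0.14), a cytokine of the TGF-beta family, IGFBP3 (0.24, SE 0.10), which binds insulin-like growth factors and was near the lower end of the scale, and IGF2 (0.40, SE 0.17), with exact p of 0.03, 0.02 and 0.09.

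Proteases and their inhibitors were higher in mean in 19 of 27 genes, 5 at an unadjusted p under 0.05 and 1 lower, with a median of 0.22. Without AI1061 these counts were 19, 6 and 2, and the median was 0.15. Besides TIMP1 they held A2M, a broad inhibitor of proteases (0.96, SE 0.24, exact p = 0.02), SERPING1, the inhibitor of complement C1 (0.62, SE 0.16, exact p = 0.02), and MMP14, a membrane-bound collagenase (0.50, SE 0.15, exact p = 0.01). MMP14 was at 12.8, 12.71, 12.67 and 12.18 in the lower-progesterone sows and from 12.83 to 13.4 in the others, apart by 0.03. SERPING1 differed by 0.68 on surgery day 1 and by -0.10 on day 2. The gene lower at an unadjusted p under 0.05 over all sows was TIMP2 (-0.74, SE 0.32).

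In immunity, antigen presentation by MHC class II had the highest median of the immune lists, 0.41, with 11 of 13 measured genes higher in mean and 1 at an unadjusted p under 0.05. Without AI1061 there were 11 and 0, with a median of 0.31. Class II molecules carry peptides to helper T cells. SLA-DQB1, a chain of such a molecule, was at 10.15, 10.44, 10.25 and 9.25 in the lower-progesterone sows and from 10.24 to 11.74, with a median of 10.58, in the others (difference 0.74, SE 0.30, exact p = 0.08). SLA-DRA differed by 0.77 (SE 0.38, exact p = 0.13), SLA-DMA, which loads peptides, by 0.61 (SE 0.29, exact p = 0.12) and the co-stimulatory receptor CD40 by 0.29 (SE 0.15, exact p = 0.12).

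These values rested on sows at both ends. AI792 was the highest in all 4 genes, at 11.72 in SLA-DRA against 8.77 to 10.75 in the other sows, and AI992 or AI696 the lowest. The list deviated by -0.16 to 0.88 in the higher class and by -0.59 to 0.19 in the lower class. Its median was 0.62 on surgery day 1 and -0.34 on day 2, so the sign turned on the second day. That day had 3 sows, among which the class could not be separated from insemination. On that day SLA-DRA differed by -0.54 and CD40 by -0.28. Over the other 9 sows, without AI792, the median of the list was 0.25.

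Presentation by MHC class I showed 11 of 16 genes higher in mean and a median of 0.06, with and without AI1061. TAP2, which pumps peptides into the ER, was the gene with an unadjusted p under 0.05, with 7.77, 7.61, 7.62 and 7.33 in the lower-progesterone sows and 7.79 to 8.74 in the others. The classes were apart by 0.02 (difference 0.52, SE 0.18, exact p = 0.01), and AI792 was far above the rest. Class I genes are close relatives of each other, so their features can bind transcripts of more than 1 of them, and they were taken as annotated.

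Interferon-stimulated genes were higher in mean in 25 of 29 measured genes, against 49.9% of all genes, but with small differences, the median being 0.14. At an unadjusted p under 0.05, 1 was higher and 1 was lower. GBP1, a guanylate-binding protein, differed by 0.73 (SE 0.27, exact p = 0.08), and MX2, an antiviral GTPase, by -0.30 (SE 0.13, exact p = 0.06). Within surgery days the list went in opposite directions, with a median of -0.21 on day 1 and 0.46 on day 2. On day 2 the class could not be separated from insemination. Over sows the list was highest in AI788, at 0.45, and lowest in AI1061, at -0.29, both of the higher class. Without AI788 the median was 0.03. Without AI1061 it was 0.24, with 26 genes higher in mean, 3 of them at an unadjusted p under 0.05.

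T and NK cell genes were higher in mean in 19 of 23, with a median of 0.12, or in 15 with a median of 0.05 without AI1061. Of the 23, 15 had a mean level under the median of all array values, 7.087. CD8A, a co-receptor of cytotoxic T cells, was such a gene, at 6.73, 6.68, 6.67 and 6.69 in the lower-progesterone sows and 6.83 to 7.18 in the others (difference 0.22, SE 0.09, exact p = 0.01). The classes did not overlap, and AI792 was again the highest. B and plasma cells could not be described, since 1 of 20 listed genes was measured.

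Macrophage and dendritic cell genes had a median of 0.15, with 12 of 19 higher in mean, or 0.06 and 10 without AI1061. FCGR2B, an inhibitory receptor for immunoglobulin G, was at 8.35, 8.25, 8.23 and 8.02 in the lower-progesterone sows and from 8.44 to 8.71 in the others, without overlap (difference 0.36, SE 0.09, adjusted p = 0.208 in limma, exact p = 0.01). The integrin chain ITGB2 differed by 0.33 (SE 0.15, exact p = 0.09). CYBA, a subunit of the phagocyte oxidase, was in the opposite direction and apart, with 10.87, 10.89, 10.71 and 10.86 against 10.35 to 10.7 (difference -0.26, SE 0.09, exact p = 0.01). LYZ (lysozyme) had the largest difference of the list in size, -0.97 (SE 0.47, exact p = 0.13), with 10.96, 9.19, 10.88 and 11.34 against 8.77 to 10.76. It was -1.96 in the not inseminated and 0.02 in the inseminated sows, a contrast that did not pass (interaction adjusted p = 0.739 in limma), and -0.65 without AI992 and -1.54 without AI1059.

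Of neutrophil genes and antimicrobial peptides 7 of 13 were higher in mean, with a median of 0.01, or 5 with a median of -0.03 without AI1061. NPG4, the pig antimicrobial peptide protegrin 4, was the one at an unadjusted p under 0.05. It was at 7.71, 7.66, 7.95 and 7.79 in the lower-progesterone sows and from 6.52 to 7.5, with a median of 7.15, in the others. The classes were apart, with a difference of -0.64 (SE 0.18, adjusted p = 0.231 in limma, exact p = 0.01), -0.55 in the inseminated and -0.74 in the not inseminated sows.

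Cytokines and chemokines were spread to both sides, with 24 of 40 higher in mean, 5 of these and 2 of the lower ones at an unadjusted p under 0.05, and a median of 0.05. Without AI1061, 21 were higher in mean, 4 genes were higher and 4 lower at that p, and the median was 0.02. Of the 40, 21 had a mean level under the array median. CXCL12, a chemokine of stromal cells, differed by 0.71 (SE 0.22, exact p = 0.04), with 8.08, 8.15, 7.46 and 7.3 against 8.03 to 8.91. CCL19, which guides lymphocytes, differed by 0.34 (SE 0.10, exact p = 0.01) and the death ligand TNFSF10 by 0.31 (SE 0.11, exact p = 0.03). IL27 was lower in mean by 0.21 (SE 0.08, exact p = 0.01) at a level of 6.58 to 7.03. The largest differences of the list in each direction were those of CCL28, 1.11 (SE 0.48), and TNF, -0.66 (SE 0.27). Without AI1061 these 2 genes differed by 1.42 and -0.81.

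Complement and acute-phase genes had a median of 0.08, with 21 of 35 higher in mean. Here 7 were higher and 3 lower at an unadjusted p under 0.05, against 5.35% and 5.7% of all genes. Without AI1061, 21 were again higher in mean, 6 were higher and 4 lower at that p, and the median was 0.06. HP, an acute-phase gene, had the largest difference of the list, 1.30 (SE 0.41), or 1.55 without AI1061. Over all sows C5 (-0.46, SE 0.19) and C6 (-0.22, SE 0.08) were among the 3 lower ones. Components of the classical pathway were among the higher ones. The protease C1S was at 10.27, 9.64, 9.69 and 8.76 in the lower-progesterone sows and from 10.1 to 10.75, with a median of 10.40, in the others (difference 0.83, SE 0.25, exact p = 0.02), and C4A differed by 0.79 (SE 0.24, exact p = 0.03). AI993 alone of the lower class fell within the higher class in C1S.

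CD46, a membrane protein that protects cells from complement, was lower. Its values were 7.59, 7.5, 7.38 and 7.9 in the lower-progesterone sows and 6.52 to 7.13, with a median of 6.95, in the others. The classes did not overlap, and the difference was -0.69 (SE 0.15, adjusted p = 0.167 in limma, exact p = 0.01), with -0.65 in the inseminated, -0.72 in the not inseminated sows, -0.90 on day 1 and -0.37 on day 2. CD46 had 1 feature, with a mean level of 7.18, close to the array median of 7.087. CD55 (-0.036, SE 0.108) and CD59 (-0.145, SE 0.245), other membrane regulators of complement on the list, hardly differed.

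Toll-like receptors and their signalling genes were balanced, with 11 of 22 higher in mean and a median of 0.00, with and without AI1061. TLR4, the receptor for bacterial lipopolysaccharide, was lower in mean by 0.48 (SE 0.16, exact p = 0.02) in all 5 features, at 7.92, 7.67, 8.23 and 8.45 against 7.28 to 7.85. NFKBIA, an inhibitor of NF-kappaB that NF-kappaB itself induces, was higher by 0.42 in mean (SE 0.14, exact p = 0.03).

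**Figure D5:**
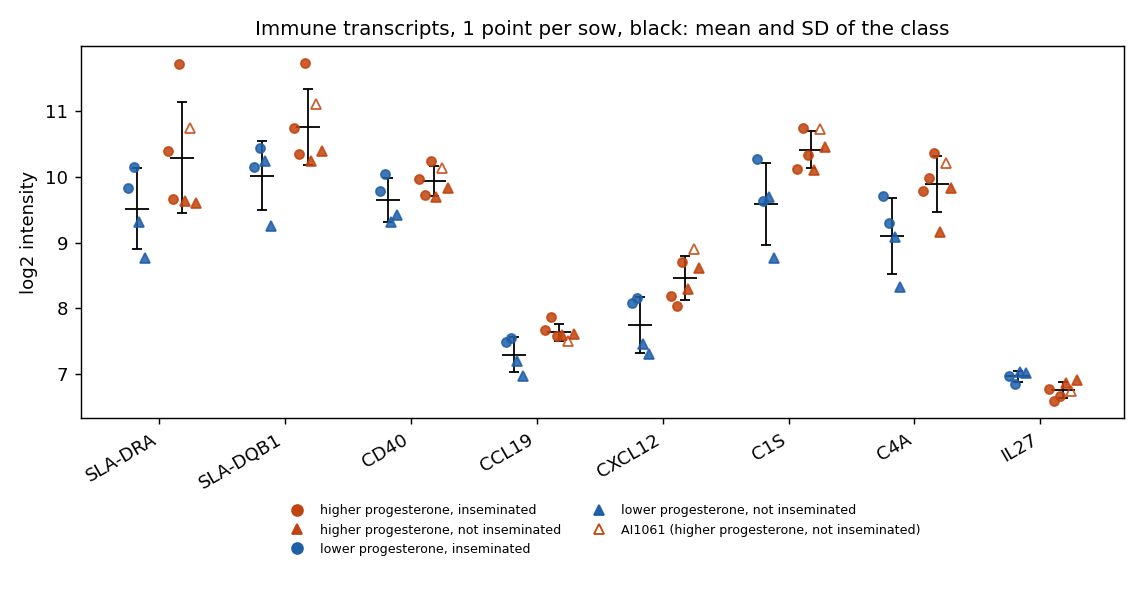
Log2 intensities of 8 immune transcripts, drawn as in the plot of smooth muscle transcripts. The classes overlap in each gene shown. In SLA-DRA and SLA-DQB1 the highest point is the inseminated higher-progesterone sow AI792, and in C1S and C4A the lowest is the lower-progesterone sow AI992.

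Genes of dividing cells were lower in mean in 12 of 15, 3 of them at an unadjusted p under 0.05, with a median of -0.10, or -0.14 with the same counts without AI1061. These were CDK1 (-0.69, SE 0.23, exact p = 0.04), the kinase that starts mitosis, CDC20 (-0.94, SE 0.33, exact p = 0.01), an activator of the ubiquitin ligase that ends it, and TOP2A (-0.31, SE 0.11, exact p = 0.01), which untangles DNA. CDC20 was at 8.1, 8.79, 10.2 and 8.78 in the lower-progesterone sows and from 7.5 to 8.69 in the others, and AI696 alone was above 9. CDK1 and TOP2A turned to 0.09 and 0.08 on surgery day 2.

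Among immediate early and heat shock genes, which respond to handling of tissue, 7 of 16 were higher in mean, with a median of -0.13, or -0.02 without AI1061. MYC, a transcription factor of growth, differed by 0.46 (SE 0.17, exact p = 0.05) and BTG2, which restrains proliferation, by -0.59 (SE 0.25, exact p = 0.12). Within the classes the list spread from -0.26 to 0.60 in the lower-progesterone sows, where AI696 was the highest, and from -0.16 to 0.23 in the others. The list of hypoxia genes had a median of 0.01, or 0.14 without AI1061, and its level was lowest in AI1061, at -0.54.

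Genes of the remaining cell types were mostly dim. Averaged over 7 measured oocyte genes the sows deviated by -0.17 to 0.04 in the higher class and by 0.05 to 0.22 in the lower class. The classes did not overlap but nearly met, at AI837 (0.04) and AI1059 (0.05). Such a separation was not particular to oocyte genes. The levels of the smooth muscle, cumulus and granulosa, steroid-responsive and contraction lists were also apart, with the higher class above. Of these genes, BMP15 (-0.78, SE 0.26, exact p = 0.05), a growth factor of the oocyte, and ZP2 (-0.52, SE 0.23, exact p = 0.09), a protein of its coat, were lower at an unadjusted p under 0.05, 2 of 7 against 5.7% of all genes. Their number was again 2 without AI1061. Only 1 of the 2 features of ZP2 had that direction, and the ZP2 difference was -0.33 without AI993. Of the 7 oocyte genes 2 were higher in mean. In mean level 4 of the 7 were under the array median, and the median difference was -0.04, or -0.02 without AI1061. Of the 11 cumulus and granulosa genes measured VCAN, a proteoglycan that stroma also makes, differed by 0.41 (SE 0.11, exact p = 0.02), and the list had a median of 0.06, or 0.05 without AI1061. Luteal genes, with 7 of 9 under the array median, ran from -0.10 to 0.16. Adipocyte genes ran from -0.13 to 0.16, with 6 of 7 under the array median. Red blood cells and mesothelium had 2 and 1 measured genes, and the mesothelial gene was not dim, at a mean level of 9.48.

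The lists of muscle and of secretion stood in opposite order in several sows. The lower-progesterone sows AI696 and AI992 had the lowest smooth muscle levels, -0.65 and -0.99, and the highest levels of the ER list, 0.36 and 0.35, and of secretory epithelial cells, 0.23 and 0.21. In the higher-progesterone sow AI1061 these 3 values were 0.54, -0.50 and -0.66. AI943 and AI993, of opposite class, were alike in smooth muscle, at -0.21 and -0.23, and near each other in the ER list, at 0.06 and 0.12, and in secretory epithelial cells, at 0.14 and 0.16. The part that the share of muscle and mucosa in the sampled pieces had in the class differences was not tested.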

How the data were processed

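Per the labels and the study's methods, total RNA of the ampullary-isthmic junction of 10 sows was hybridized to Agilent porcine arrays, 1 array per sow. The authors took spot intensities from scanned images, corrected the background by normexp and normalized the arrays by quantiles with limma, and deposited log2 values for 45220 features, which were used as deposited. Of these, 10290 had 1 gene symbol, taken from the platform's annotation or from a match by accession. By accession 6055 were matched, which replaced 446 of the platform's symbols. This gave 4560 genes, taken as means of their features. Spot flags and background values were not used here. The number of arrays limits the precision.

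Classes followed the progesterone of each sow in the study's animal sheet. The fit used limma (version 3.58.1, under R 4.3.3) with insemination and class as terms with Benjamini-Hochberg adjustment over all genes or all features, and was tested on simulated data. Outside a naming rule, HSPA5 and further members of the stromal, secretory epithelial, ER, complement and cytokine lists were named after their values were seen. All other genes were named by the rule. It took the progesterone and oestrogen receptors, OVGP1, SPP1, ACTB and GAPDH, genes past an adjusted p of 0.05, and up to 4 of smallest p per list. In each direction it also took up to 10 genes of smallest p among those with a 2-fold difference, leaving out mean levels below the 40th percentile. Of the 145 genes this rule names 88 are described, a choice made with their values known. The comparison and the 34 lists, with 506 of 824 genes measured, were chosen with earlier results of these data known. Alternatives were other scalings, a filter on low levels, other terms, single surgery days or insemination groups, other variance models and weights, the brightest feature of a gene, and leaving out each sow.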

Additional observations from a re-analysis of the deposited data

Results flagged for a closer look

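The check took 234 groups of 4 or 6 sows, covering the described genes of the naming rule, HSPA5 and the lists with 5 or more measured genes. In 9 of these groups 1 sow lay far from the rest of its class. Its gap to the nearest sow was a large share of the range of the class by Dixon's criterion. Chance marks about 1 in 20 groups. AI792 was the highest of the higher-progesterone sows in TAP2, at 8.74 with the next at 8.1, and in CD8A, at 7.18 with the next at 6.87. AI943 was the lowest of that class in OVGP1, at 15.91 with the next at 15.95. AI1061 was the lowest in KDR, at 6.92 with the next at 7.39, and in the mean deviation of secretory epithelial cell genes, at -0.66 with the next at -0.08. Among the lower-progesterone sows AI993 was the lowest in CLDN5, at 6.84 with the next at 7.11, and in the mean deviation of luteal genes, at -0.08 with the next at 0.03. AI992 was the highest in PRDX4, at 13.37 with the next at 13.2, and AI1059 the highest in the mean deviation of steroid metabolism genes, at 0.19 with the next at -0.09.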

How the results depend on the processing

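Of 89 named genes, those described from the rule and HSPA5, 73 kept their direction under every alternative that gave them a value. The filter on low levels left out 13 of the 89. Surgery day 2 sets 2 sows against 1 that also differs from them in insemination, so its values and counts are no test of the class. With these 3 sows the direction turned for PGRMC2 (0.081), ESR2 (0.075), SERPING1 (-0.097), SLA-DQB1 (-0.123), SLA-DMA (-0.186), SLA-DRA (-0.544), CD40 (-0.281), GBP1 (-0.077), IL27 (0.032), CDK1 (0.085), TOP2A (0.081), KDR (0.352) and LYZ (0.03), and with the brightest feature for PGRMC2 (0.088), CALB1 (-0.148), DMBT1 (0.028) and ACTB (-0.008). KDR (0.137) and LYZ (0.021) turned in the inseminated sows. PGRMC2 also turned in the not inseminated sows (0.053), with array weights (0.021) and without AI1059, and ESR2 without AI696, their values without single sows running from -0.145 to 0.003 and from -0.187 to 0.04. At a false discovery rate of 5%, where 0 genes and 0 features passed in limma (504 and 3683 at an unadjusted p under 0.05), 2 genes passed with surgery day as a term, 2 genes and 24 features on day 2, and 10 genes and 5 features in the not inseminated sows. Leaving out single sows gave 0 to 23 genes, the highest without AI943 and 1 without AI1059, and 0 to 2 features, the highest without AI837. At an unadjusted p under 0.05 there were 880 genes and 7768 features on day 2 and 232 and 2117 in the inseminated sows, and 275 to 639 genes and 2291 to 4677 features without single sows, the fewest without AI992. Of the smooth muscle genes 6 were higher at that p on day 2 and 5 in the inseminated sows, and 13 to 15 without single sows. Of the ER genes 0 were lower in the inseminated sows and 6 to 10 without single sows. Day 2 and each insemination group held fewer sows, and no cause was otherwise tested. No paired analysis was possible because the replicate numbers only count sows in accession order.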
